A study of Mus musculus with 6 samples.

Results

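The DNA replication machinery described here comprised 39 genes, of 41228 genes listed and 15457 tested. They were taken by symbol from a list of replication factors that was chosen with earlier results of these data known. They fell into 8 complexes or functions: the MCM helicase (6 genes), its activators GINS, Cdc45 and Mcm10 (6), origin licensing (4), the replicative polymerases (7), the clamp, its loader and Okazaki fragment processing (6), nucleotide supply (5), chromatin assembly (3) and cyclin E (2). Expression was measured by RNA sequencing of total RNA from the cerebellum of C57BL/6 mice aged 6 days, with 3 libraries labelled wild type and 3 labelled SnoN cKO, a conditional knockout of SnoN, the Ski family transcriptional regulator encoded by Skil. The sources used here do not give the deleted exons, the Cre driver, the cells it acts in or any allele that the wild type animals carried. The title of the series concerns the proliferation of granule neuron precursors, so the comparison asks whether transcripts of the S phase machinery differ between the genotypes.

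Replication begins with licensing, in which the origin recognition complex, Cdc6 and Cdt1 load the MCM ring onto DNA. In S phase, GINS and Cdc45 join MCM to form the active helicase, polymerase alpha with primase lays primers, and polymerases epsilon and delta extend them with the sliding clamp PCNA. Many of these genes are known targets of E2F factors and are transcribed around the entry into S phase, and in the cerebellum of the first postnatal week the main dividing cells are the granule neuron precursors of the external granular layer. In bulk tissue, a larger share of dividing cells and more RNA per dividing cell cannot be told apart.

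Libraries held between 12605870 and 17757711 counts on genes, and no pair of them agreed within sampling noise. Levels are CPM, counts scaled to a library total after TMM normalization (trimmed mean of M values), and errors are SD of 3 libraries per genotype unless stated. The level of Skil was 88.6 ± 1.003 CPM in wild type against 76.1 ± 1.39 CPM in SnoN cKO, without overlap. Its log2 fold change was -0.22 (SE 0.04, unadjusted p = 0.000379, adjusted p = 0.637 by edgeR). Such a separation, with SnoN cKO lower, was found for 6.73% of all genes. The genotype labels thus matched the targeted gene in direction, with a small difference that did not pass the genome-wide test. The sex labels of the SnoN cKO libraries did not match their reads: SnoN cKO 1, labelled female, had 35 Xist reads and 3421 reads of Y-linked genes, and SnoN cKO 2, labelled male, had 37467 and 5. Both belonged to the same genotype. Wild type 1, labelled female, had 33319 Xist reads and 1 Y-linked read. Wild type 2, wild type 3 and SnoN cKO 3, labelled male, had 34 to 56 and 3476 to 5072. By reads, wild type 1 and SnoN cKO 2 were thus female and the other libraries male. Medians over the list and its complexes, and counts over the whole list only, are given with and without SnoN cKO 1 and 2. Every value without both rests on SnoN cKO 3 alone in its group. SnoN cKO 2 also lacked most choroid plexus RNA, with Ttr, a choroid plexus transcript, at 17.3 CPM against 1641 to 3209 CPM elsewhere, and Gm42418, which overlaps ribosomal RNA, took 3.75% of the counts of SnoN cKO 3 and 0.692% of those of wild type 2 against at most 0.0660% in the others. Markers of granule neuron precursors were present in every library, with Atoh1 between 25.8 and 34.1 CPM and Mki67, a marker of dividing cells, between 632 and 751 CPM.

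The promoters are shown first because E2F-type letters were found in many of them. RefSeq promoter windows on GRCm38.p6, from 250 bases before to 50 after the annotated start, were matched for 32 of the 39 genes. An E2F-type motif (TTTCCCGC, TTTGGCGC, TTTCGCGC or TTTGCCGC, on either strand) was found in 13 of the 32, or 40.6%, against 4.43% of the 11575 tested genes with a window and 2.26% of all 32851 windows. Of the genes holding the motif, the 4 with the smallest p in the genotype test were Mcm6, Rfc3, Mcm3 and Mcm7, and Tyms is shown as a gene without it. Each line gives 150 bases, from 120 before the start to 30 after it, read 5′ to 3′ on the gene's strand, with the motif letters in capitals.
Mcm6 (chr1:128359676-128359825, minus strand): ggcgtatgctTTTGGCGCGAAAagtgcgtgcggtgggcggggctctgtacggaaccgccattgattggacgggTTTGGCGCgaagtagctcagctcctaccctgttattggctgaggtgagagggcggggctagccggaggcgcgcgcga
Rfc3 (chr5:151651179-151651328, minus strand): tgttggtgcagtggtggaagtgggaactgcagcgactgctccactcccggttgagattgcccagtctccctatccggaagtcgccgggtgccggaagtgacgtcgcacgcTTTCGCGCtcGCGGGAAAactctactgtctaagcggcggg
Mcm3 (chr1:20820283-20820432, minus strand): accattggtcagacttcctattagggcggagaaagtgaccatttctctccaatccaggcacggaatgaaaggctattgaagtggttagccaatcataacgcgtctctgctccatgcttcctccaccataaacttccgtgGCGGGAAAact
Mcm7 (chr5:138171854-138172003, minus strand): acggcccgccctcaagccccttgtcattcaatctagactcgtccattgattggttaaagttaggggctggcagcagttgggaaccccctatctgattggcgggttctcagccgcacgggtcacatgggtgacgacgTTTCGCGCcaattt
Tyms (chr5:30073596-30073745, minus strand): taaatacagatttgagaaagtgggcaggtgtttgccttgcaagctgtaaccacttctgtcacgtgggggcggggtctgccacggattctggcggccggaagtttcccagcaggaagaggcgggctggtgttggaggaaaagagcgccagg

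In Mcm6 the motif occurred 3 times, with first bases at -110, -106 and -47 from the start, the first 2 overlapping on opposite strands. In Rfc3 it occurred at -10 and at 1, so that both copies lay at the start itself. Mcm3 held it at 20 and 39 and this Mcm7 window at -165 and 17, and in each of these genes only the copy within the printed stretch is shown. A further Mcm7 window, for a start downstream, had none. By complex, the motif was found in 4 of 5 matched MCM genes, 3 of 4 licensing genes, 3 of 5 polymerase genes, 2 of 6 clamp and Okazaki genes, 1 of 3 genes of the GINS group, 0 of 5 nucleotide supply genes, 0 of 3 chromatin assembly genes and 0 of 1 cyclin E gene. These groups are small, and their shares were not tested against each other. The CCAAT box (CCAAT, either strand) was found in 18 of 32 genes, or 56.2%, against 42.4% of tested genes, and TTTGAA, the letters of the cell cycle homology region, in 4 of 32, or 12.5%, against 14.0%. A match is a run of letters only.

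The levels of the replication genes spanned a wide range. Per kilobase of the longest annotated protein-coding transcript, Pcna was highest in wild type at 57.4 CPM per kb, followed by the ribonucleotide reductase subunit gene Rrm1 at 51.7 and the dUTPase gene Dut at 45.5. The 6 MCM genes lay between 23.3 (Mcm4) and 42.3 (Mcm6) CPM per kb, and their products stand in equal number in the ring. The lowest levels were those of Fen1, at 1.86, and Orc1, at 2.18 CPM per kb. For Fen1, the flap endonuclease of Okazaki fragments, 84.2% of the annotated exon bases are shared with Gm10143 and Tmem258, and its low count is therefore uncertain. Gins2 shares 67.3% of its exon bases with Gse1 and Chaf1a 52.5% with Ubxn6, and Pcna and Tyms have named pseudogenes, so their values carry the same limit. In all, 15 of the 39 genes share some exon bases with another gene, and the library kit does not record strand.

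**Figure D1:**
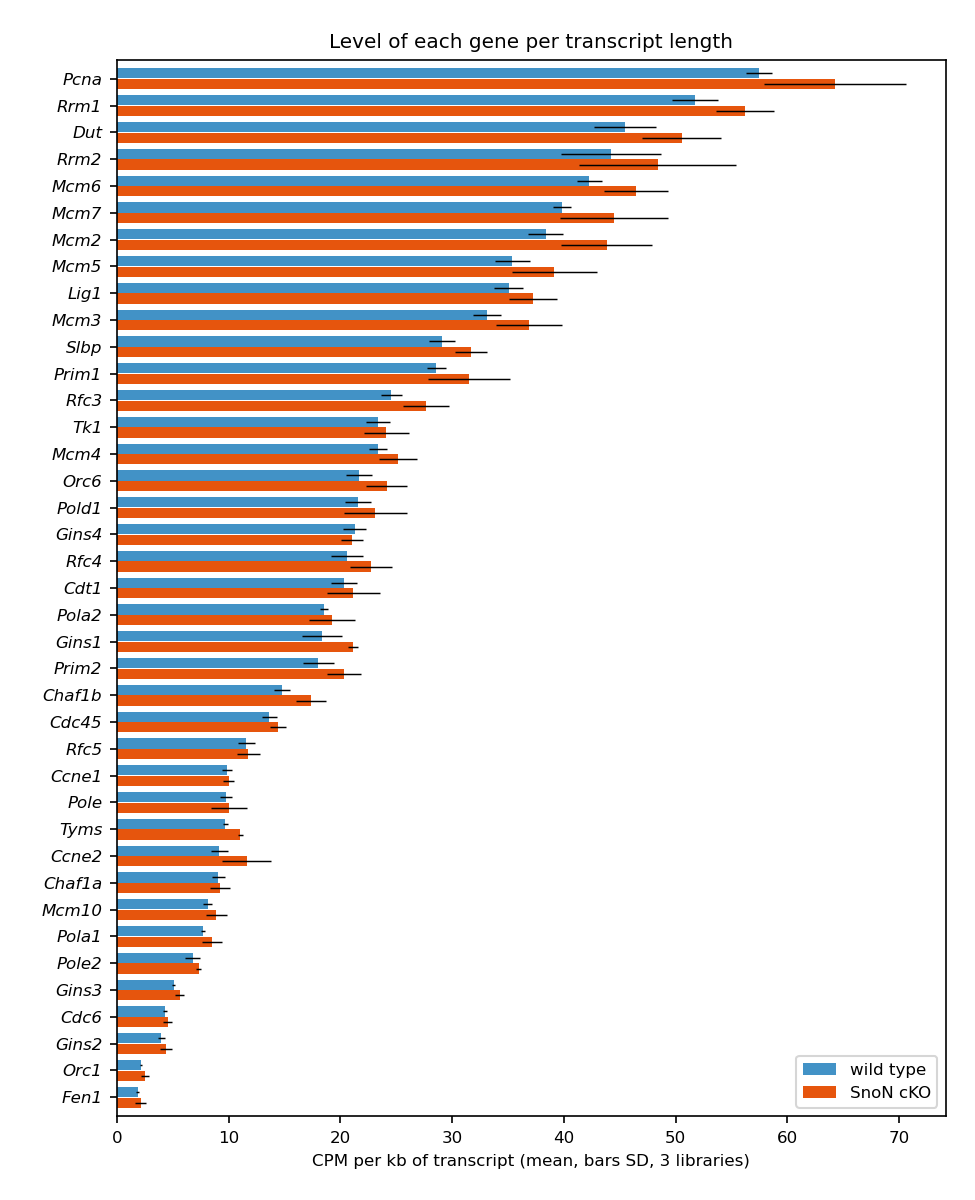
Level of each replication gene in CPM per kb of transcript on the x axis, with bars for the mean of 3 wild type (blue) and 3 SnoN cKO (orange) libraries and lines for the SD. Pcna (57.4 CPM per kb in wild type), Rrm1 and Dut lead, and Orc1 and Fen1 are lowest.

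Transcripts of the replication machinery were on average slightly higher in SnoN cKO, and no gene passed the genome-wide test. Of the 39 genes, 38 had a positive log2 fold change of SnoN cKO over wild type, against 49% of all genes tested, and the median was 0.14 against -0.0023 for all genes. By edgeR's quasi-likelihood test 0 of the 39 had an adjusted p under 0.05 (0.637 to 0.967), where 0% of all genes did. At an unadjusted p under 0.05, 14 of the 39, or 35.9%, were higher in SnoN cKO, against 3.21% of all genes, and 0 were lower, against 4.47%. In 11 genes, or 28.2%, every SnoN cKO library lay above every wild type library, against 6.95% of all genes, and in 0 genes was the reverse seen. The genes share cells and regulation and are not independent, and the list was chosen with earlier results of these data known. These counts therefore describe the list and do not test it.

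**Figure D2:**
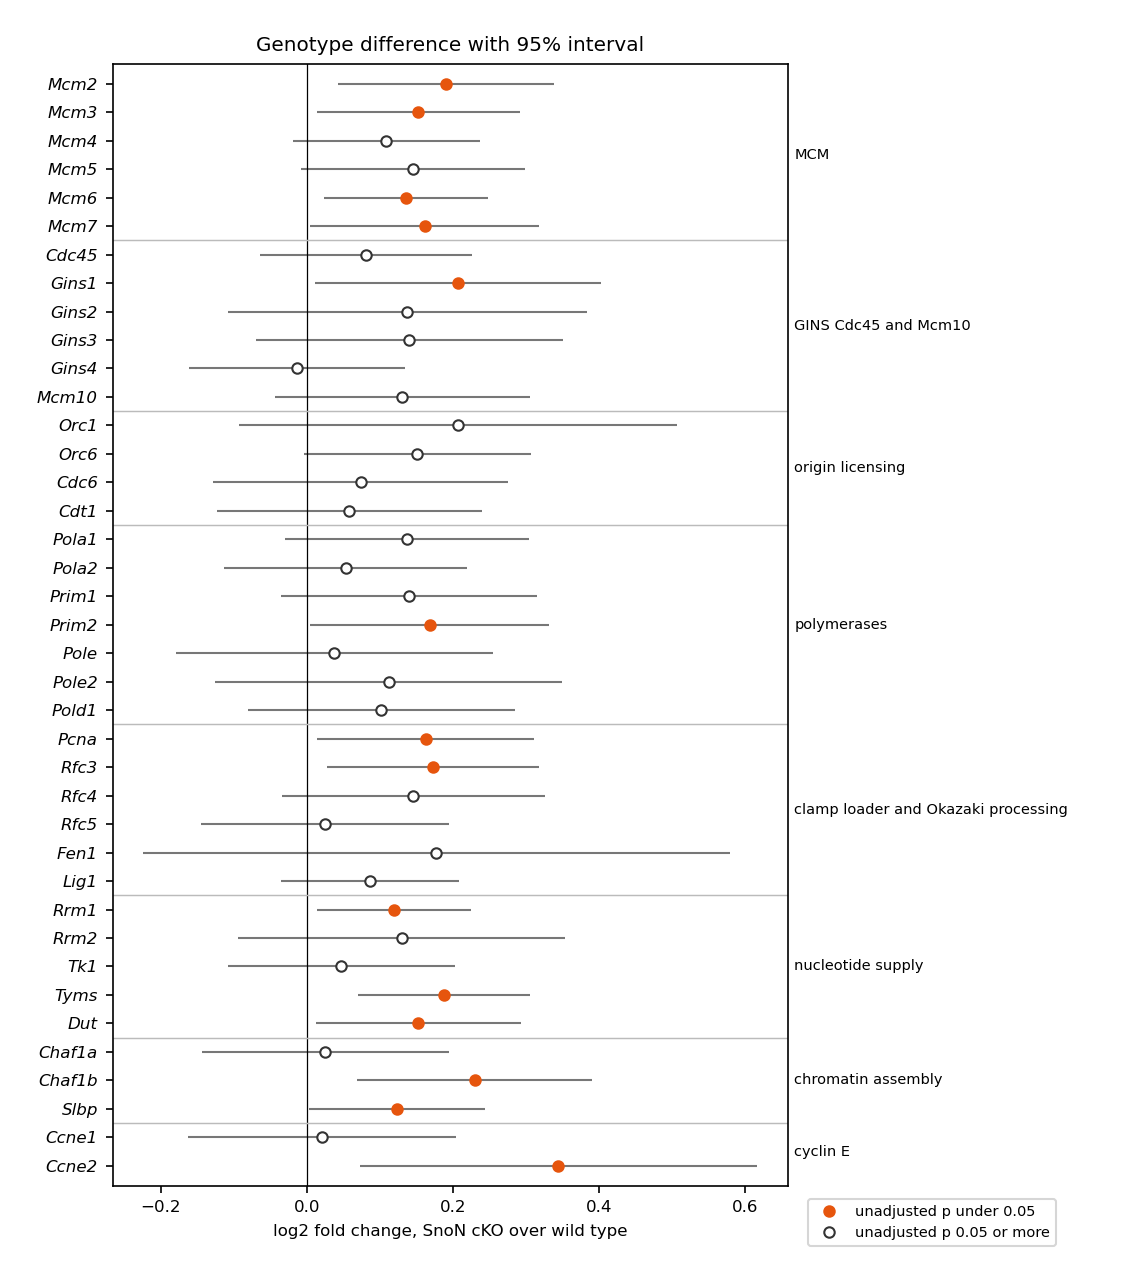
Log2 fold change of SnoN cKO over wild type on the x axis for each of the 39 genes, grouped by complex, with 95% intervals from edgeR. All points except Gins4 (-0.01) lie above 0, and the 14 filled points have an unadjusted p under 0.05.

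The difference was uneven over the SnoN cKO libraries. SnoN cKO 2 held the highest level of 34 of the 39 genes, whereas it was the highest library for 22.4% of all genes. The median deviation of the 39 genes from their mean over the 6 libraries was 0.18 on the log2 scale in SnoN cKO 2, against 0.01 and -0.01 in SnoN cKO 1 and 3 and -0.06, -0.10 and -0.03 in wild type 1, 2 and 3. The SD over libraries was larger in SnoN cKO than in wild type for 36 of 39 genes, against 53.4% of all genes, with median coefficients of variation of 8.39% and 4.70%. Without SnoN cKO 2 the median log2 fold change was 0.07, with 29 genes positive and 4 (10.3%) at an unadjusted p under 0.05 and higher, against 2.09% of all genes. Without SnoN cKO 1 or 3 the median was 0.16 and 0.18, and without both libraries rich in Gm42418 it was 0.17. Without both libraries whose sex labels did not match, which leaves SnoN cKO 3 alone in its group and takes its spread as that of the wild type libraries, the median was 0.04, with 28 genes positive and 2 higher at an unadjusted p under 0.05, against 2.38% of all genes. In that comparison of 3 libraries with 1, 16 genes (41.0%) were higher than every wild type library and 5 were lower, against 25.0% and 24.3% of all genes. The unadjusted count of higher genes was 4 without wild type 1 (against 2.31% of all genes), 7 without wild type 2 (2.04%), 9 without wild type 3 (3.68%), 9 without SnoN cKO 1 (3.52%) and 17 without SnoN cKO 3 (4.01%).

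**Figure D3:**
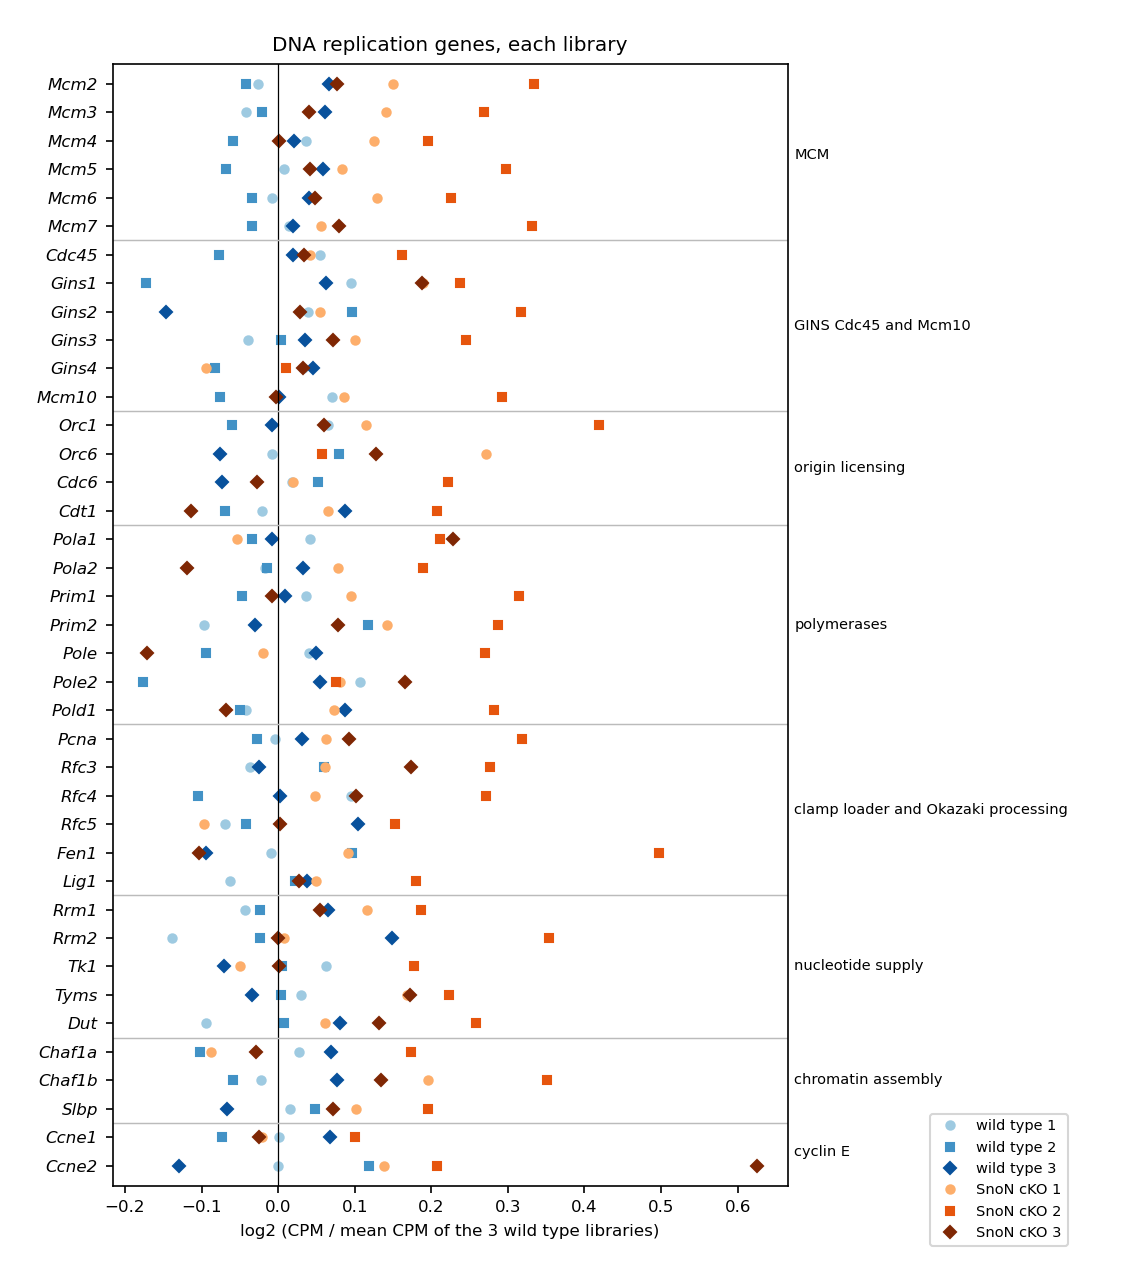
Log2 ratio of each library's CPM to the mean of the 3 wild type libraries on the x axis, for each of the 39 genes, with blue points for wild type and orange to brown points for SnoN cKO. The orange squares of SnoN cKO 2 are the rightmost point for 34 genes.

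Markers of brainstem and spinal cord, choroid plexus and meninges had negative log2 fold changes, with patterns over the libraries that differed between the lists. All 10 tested of 31 brainstem and spinal cord markers had negative log2 fold changes, and their summed level was 66.8 to 95.6 CPM in wild type and 57.0, 48.0 and 75.5 CPM in SnoN cKO 1, 2 and 3. All 12 choroid plexus markers were negative as well, with sums of 2166 to 3904 CPM in wild type, 184 CPM in SnoN cKO 2 and 4017 and 3764 CPM in SnoN cKO 1 and 3. All 10 meninges markers were negative, with sums of 1533 to 1860 CPM in wild type and 1370, 1435 and 1695 CPM in SnoN cKO 1, 2 and 3. All 10 granule precursor markers were positive, with sums of 3848, 3882 and 4263 CPM in wild type and 4149, 4541 and 4069 CPM in SnoN cKO, with overlap. Astrocyte and Bergmann glia sums were 3356, 3267 and 3336 CPM in wild type and 3611, 3839 and 3513 CPM in SnoN cKO, without overlap. SnoN cKO 2 was highest for both lists and for the Purkinje cell and microglia sums. Sums of postmitotic granule neuron, endothelium and blood, and oligodendrocyte lineage markers were highest in a wild type library. Positive values were also found for 6 of 6 astrocyte and Bergmann glia, 5 of 5 microglia, 4 of 5 Purkinje cell, 6 of 8 postmitotic granule neuron, 3 of 7 endothelium and blood and 2 of 7 oligodendrocyte lineage markers, and 0 markers of any list had an adjusted p under 0.05 by edgeR. With the brainstem sum as a covariate the median of the replication genes was 0.05, with 27 positive. At an unadjusted p under 0.05, 3 of the 39 were then higher, against 1.93% of all genes, and 1, Pole, was lower, against 2.39%. The part that the makeup of the dissected tissue plays in the result was not tested.

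Summed over the 39 genes, the level was 2219, 2197 and 2300 CPM in wild type 1, 2 and 3 and 2366, 2657 and 2318 CPM in SnoN cKO 1, 2 and 3. The genotypes did not overlap, but SnoN cKO 3 exceeded wild type 3 by little, and an exact permutation test of 3 against 3 libraries gave p = 0.1, the smallest it can give. Relative to Mki67 the sums overlapped, with a ratio of 3.41 ± 0.106 in wild type and 3.47 ± 0.0624 in SnoN cKO (two-sided exact permutation p = 0.5). Mki67 itself was at 657 ± 35.2 CPM and 705 ± 41.9 CPM, a log2 fold change of 0.10 (SE 0.06). The permutation test of the ratio cannot give a p under 0.1 either. It therefore could not decide whether replication transcripts per unit of this marker differed.

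**Figure D4:**
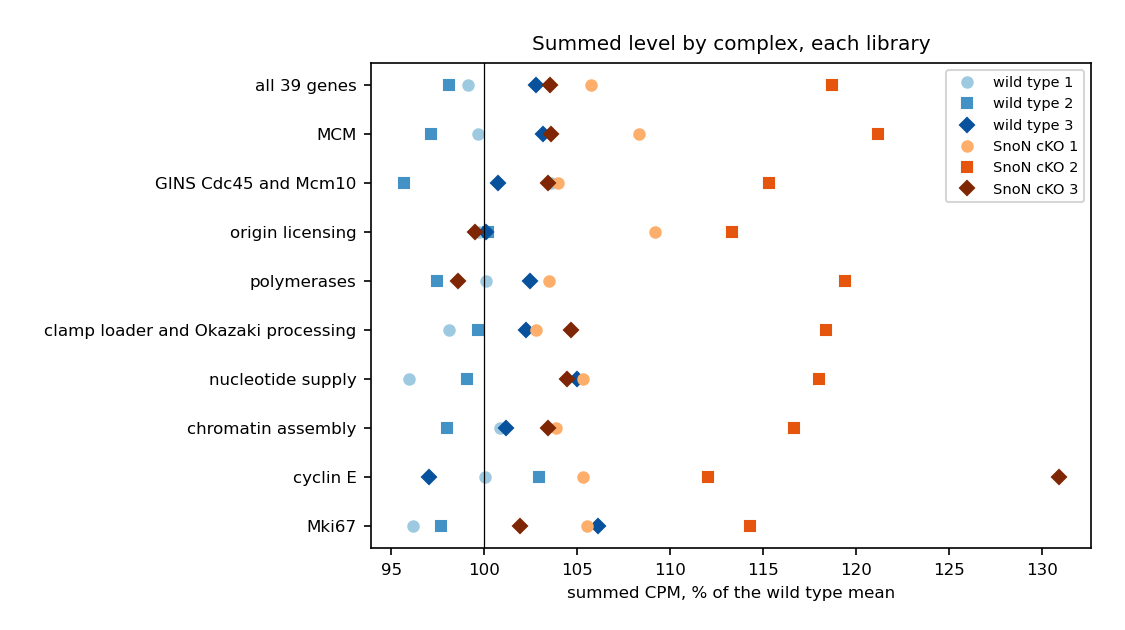
Summed CPM of each complex, of all 39 genes and of Mki67 alone on the y axis rows, as a percentage of the wild type mean on the x axis, with 1 point per library. SnoN cKO 2 is highest in every row except cyclin E, where SnoN cKO 3 reaches 131% of the wild type mean.

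The licensing genes all had positive log2 fold changes, 4 of 4, with 0 at an unadjusted p under 0.05, against 3.21% of all genes higher. None were separated between genotypes, against 6.95% of all genes with SnoN cKO above. Their median log2 fold change was 0.11. That median was 0.04 without SnoN cKO 2, 0.03 with the brainstem sum as a covariate, 0.02 without both libraries of unmatched sex and 0.18 without both rich in Gm42418. Orc6, a subunit of the origin recognition complex and the most abundant of the 4 per kilobase, was at 31.6, 33.6 and 30.2 CPM in wild type and 38.4, 33.1 and 34.7 CPM in SnoN cKO. The high library was SnoN cKO 1, and SnoN cKO 2 lay below wild type 2, so that the groups overlapped (log2 fold change 0.15, SE 0.07, unadjusted p = 0.055 by edgeR). Cdt1, the loader of MCM, had the largest p of the group. Its levels were 43.8, 42.4 and 47.2 CPM in wild type and 46.5, 51.4 and 41.1 CPM in SnoN cKO, with the highest and the lowest library both in SnoN cKO. Its log2 fold change was 0.06 (SE 0.08). Orc1, the ATPase subunit of the origin complex, had a log2 fold change of 0.21 at only 6.58 CPM in wild type, with an interval from -0.09 to 0.51. Cdc6, the ATPase that acts with Orc1 in loading, had one of 0.07 (SE 0.09).

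The MCM helicase genes were positive in all 6 cases, with a median of 0.15. Of these genes 4 were at an unadjusted p under 0.05 (3.21% of all genes were, and higher) and 3 were separated (6.95% of all genes). Leaving out SnoN cKO 2 gave a median of 0.08, and leaving out both libraries of unmatched sex one of 0.04. Mcm2, a subunit that also binds histones, was at 127, 126 and 135 CPM in wild type and 144, 163 and 136 CPM in SnoN cKO. Every SnoN cKO library was above every wild type library, though SnoN cKO 3 only just above wild type 3 (log2 fold change 0.19, SE 0.07, unadjusted p = 0.0168 by edgeR, adjusted p = 0.637). Mcm6, the most abundant subunit gene per kilobase, was at 183, 179.9 and 189 CPM in wild type and 201, 215 and 190.3 CPM in SnoN cKO, again without overlap. Its log2 fold change was 0.14 (SE 0.05). Of the 3 E2F-type motifs in its promoter, those at -110 and -106 overlapped on opposite strands. Mcm4, with the largest p of the ring, was at 85.9, 80.4 and 85.0 CPM in wild type and 91.3, 96.0 and 83.8 CPM in SnoN cKO, where SnoN cKO 3 lay among the wild type libraries (log2 fold change 0.11, SE 0.06). Mcm3, Mcm5 and Mcm7 had log2 fold changes of 0.15, 0.15 and 0.16, and Mcm7 was separated as well.

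Shares of the subunits within the ring differed little between genotypes. Mcm2 made up 17.8%, 18.1% and 18.3% of the summed MCM level per kilobase in wild type and 18.5%, 18.8% and 18.4% in SnoN cKO, a difference without overlap but of 2.69% in relative terms (two-sided exact permutation p = 0.1, adjusted p = 0.34 over 17 ratios by the Benjamini-Hochberg method). The shares of the other 5 subunits overlapped between genotypes. In wild type they ranged from 10.99% ± 0.277 for Mcm4 to 19.9% ± 0.0951 for Mcm6.

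Among the helicase activators 5 of 6 were positive, with a median of 0.13. Higher at an unadjusted p under 0.05 was 1, against 3.21% of all genes, and 2 were separated, against 6.95%. The median without SnoN cKO 2 was 0.04, and without both libraries of unmatched sex 0.03. Gins1, which encodes the subunit Psf1 of the GINS tetramer, was at 21.3, 17.7 and 20.8 CPM in wild type and 22.7, 23.5 and 22.7 CPM in SnoN cKO. The SnoN cKO libraries lay close together above a wider wild type group, the reverse of the spread seen for most of these genes (log2 fold change 0.21, SE 0.09, unadjusted p = 0.0398 by edgeR). Gins4, which encodes the subunit Sld5, was the single gene with a negative value. Its levels were 29.3, 27.1 and 29.6 CPM in wild type and 26.9, 28.9 and 29.3 CPM in SnoN cKO, overlapping, with a log2 fold change of -0.01 (SE 0.07) and an interval from -0.16 to 0.13. Gins1 made up 37.6% ± 1.78 of the GINS level per kilobase in wild type and 40.5% ± 0.808 in SnoN cKO, and Gins4 43.7% ± 0.460 and 40.3% ± 1.27. Neither share overlapped between genotypes, and neither passed (exact permutation p = 0.1 each, the smallest it can give, adjusted p = 0.34). Both are shares of the same sum and are not separate results. That sum also holds Gins2, which shares 67.3% of its exon bases with Gse1. Gins2 and Gins3 had log2 fold changes of 0.14 each, Cdc45, the helicase cofactor, of 0.08 and Mcm10, an initiation factor, of 0.13.

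The polymerase genes were all positive, 7 of 7, with a median of 0.11. Only 1 was higher at an unadjusted p under 0.05, against 3.21% of all genes, and none were separated, against 6.95%. Prim2, the large subunit of primase, was at 33.3, 38.6 and 34.8 CPM in wild type and 39.2, 43.4 and 37.5 CPM in SnoN cKO, with overlap between wild type 2 and SnoN cKO 3 (log2 fold change 0.17, SE 0.07, unadjusted p = 0.0445 by edgeR). Prim1, the catalytic primase subunit and the most abundant of the group per kilobase, was at 46.4, 43.8 and 45.5 CPM in wild type and 48.3, 56.2 and 45.0 CPM in SnoN cKO (log2 fold change 0.14, SE 0.08). Pole, the catalytic subunit of the leading strand polymerase, differed least. It was at 72.1, 65.6 and 72.5 CPM in wild type and 69.1, 84.5 and 62.2 CPM in SnoN cKO, so that SnoN cKO held its highest and its lowest library. Its log2 fold change was 0.04 (SE 0.10), and -0.09 without SnoN cKO 2. Pola1 and Pola2, the catalytic and accessory subunits of polymerase alpha, had values of 0.14 and 0.05, Pole2 of 0.11 and the polymerase delta catalytic gene Pold1 of 0.10. Without both libraries whose sex labels did not match, or with the brainstem sum as a covariate, the median of this group was -0.0078 and -0.0044, and without SnoN cKO 2 it was 0.04.

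Of the clamp, clamp loader and Okazaki genes 6 of 6 were positive. Those higher at an unadjusted p under 0.05 numbered 2, against 3.21% of all genes, and the same number were separated, against 6.95%. The median of the group was 0.15. It was 0.06 without SnoN cKO 2 and also without both libraries of unmatched sex. Rfc3, a small subunit of the clamp loader, was at 31.5, 33.7 and 31.8 CPM in wild type and 33.8, 39.2 and 36.5 CPM in SnoN cKO, with wild type 2 and SnoN cKO 1 almost level (log2 fold change 0.17, SE 0.07, unadjusted p = 0.0243 by edgeR). Pcna was at 86.9, 85.5 and 89.1 CPM in wild type and 91.1, 109 and 93.0 CPM in SnoN cKO, with most of the difference in SnoN cKO 2 (log2 fold change 0.16, SE 0.07). Rfc5, another loader subunit, had the largest p of the group. Its levels were 30.8, 31.4 and 34.8 CPM in wild type and 30.2, 35.9 and 32.4 CPM in SnoN cKO, a log2 fold change of 0.02 (SE 0.08). Rfc4 had a value of 0.15, Lig1, the ligase that seals Okazaki fragments, of 0.09, and Fen1 of 0.18 with an interval from -0.22 to 0.58 at 53 to 92 reads a library.

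The nucleotide supply genes were positive in 5 of 5 cases, with a median of 0.13. Here 3 were higher at an unadjusted p under 0.05, against 3.21% of all genes, and 1 was separated, against 6.95%. For this group the median was 0.09 without SnoN cKO 2 and 0.05 without both libraries of unmatched sex. Tyms, the thymidylate synthase gene, was at 31.3, 30.8 and 29.9 CPM in wild type and 34.5, 35.8 and 34.5 CPM in SnoN cKO. Its SnoN cKO libraries lay close together and clear of wild type, with SD of 0.749 and 0.689 CPM, and it had the smallest p of the 39 genes (log2 fold change 0.19, SE 0.05, unadjusted p = 0.00511 by edgeR, adjusted p = 0.637). Tyms was also the least dependent on single libraries, with a log2 fold change between 0.17 and 0.21 over all 19 alternatives, and its window held no E2F-type letters. Rrm1, the large subunit of ribonucleotide reductase and the most abundant of the group, was at 201, 203 and 216 CPM in wild type and 224, 235 and 215 CPM in SnoN cKO, overlapping through SnoN cKO 3 (log2 fold change 0.12, SE 0.05). Tk1, the thymidine kinase of the salvage route, was at 35.1, 33.7 and 32.0 CPM in wild type and 32.5, 38.03 and 33.7 CPM in SnoN cKO, with overlap, although SnoN cKO 2 lay above every wild type library, and a log2 fold change of 0.05 (SE 0.07). The ratio of Tyms to Tk1 per kilobase was 0.406, 0.415 and 0.425 in wild type and 0.483, 0.429 and 0.467 in SnoN cKO (exact permutation p = 0.1, adjusted p = 0.34). Rrm2, the small reductase subunit, and Dut had log2 fold changes of 0.13 and 0.15, and the ratio of Rrm2 to Rrm1 overlapped at 0.853 ± 0.0530 and 0.859 ± 0.0890.

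Of the chromatin assembly genes 3 of 3 were positive, with a median of 0.12. Among them 2 were higher at an unadjusted p under 0.05, against 3.21% of all genes, and the same number were separated, against 6.95%. Both libraries of unmatched sex left out, the median was 0.07. Chaf1b, the p60 subunit of chromatin assembly factor 1, was at 28.0, 27.3 and 30.01 CPM in wild type and 32.6, 36.3 and 31.2 CPM in SnoN cKO, all above wild type (log2 fold change 0.23, SE 0.07, unadjusted p = 0.00973 by edgeR). Its partner Chaf1a, the p150 subunit, was at 51.2, 46.8 and 52.7 CPM in wild type and 47.2, 56.6 and 49.2 CPM in SnoN cKO, with overlap and a log2 fold change of 0.03 (SE 0.08). The ratio of Chaf1b to Chaf1a per kilobase was 1.63 ± 0.0528 in wild type and 1.89 ± 0.0880 in SnoN cKO, without overlap (exact permutation p = 0.1, adjusted p = 0.34). Reads in the exons that Chaf1a shares with Ubxn6 could belong to either gene. Slbp, which binds the stem-loop of histone mRNA, was at 56.0, 57.3 and 52.9 CPM in wild type and 59.4, 63.5 and 58.2 CPM in SnoN cKO, a small separation with a log2 fold change of 0.12 (SE 0.05).

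Both cyclin E genes, whose products activate Cdk2 at the entry into S phase, were positive, with a median of 0.18. That median was 0.12 without SnoN cKO 3 and 0.13 without both libraries rich in Gm42418. Without both libraries of unmatched sex, which leaves SnoN cKO 3 alone in its group, it was 0.30. Ccne2 was at 27.5, 29.9 and 25.2 CPM in wild type and 30.3, 31.8 and 42.5 CPM in SnoN cKO, the largest log2 fold change of the 39 genes at 0.34 (SE 0.12, unadjusted p = 0.0181 by edgeR). Its high library was SnoN cKO 3, the library richest in Gm42418, unlike for most of the 39 genes. Without that library the value was 0.18. Exons of Ccne2 share 17.4% of their bases with Ints8. Ccne1 was at 19.7, 18.7 and 20.7 CPM in wild type and 19.4, 21.1 and 19.4 CPM in SnoN cKO, with overlap and a log2 fold change of 0.02 (SE 0.08). The ratio of Ccne2 to Ccne1 per kilobase overlapped, at 0.934 ± 0.125 and 1.17 ± 0.254 (exact permutation p = 0.3).

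Genotype differences of genes with and without the E2F-type motif had similar medians, and the range was wider without it. The 13 with the motif had a median log2 fold change of 0.14, from 0.06 to 0.21, and the other 26, which include 7 genes without a matched window, had a median of 0.13, from -0.01 to 0.34. Of the 4 genes with the smallest p, Tyms, Chaf1b and Mcm2 had windows without the motif, and Ccne2 had no matched window.

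Of 57 further replication genes, also chosen with earlier results of these data known, 56 were tested, Pold4 falling to the filter on low counts. Of these 50 were positive in log2 fold change, against 49% of all genes, and 6 were negative. The median was 0.09, against -0.0023 for all genes. Without SnoN cKO 2 it was 0.05, and 0.04 without both libraries of unmatched sex. At an unadjusted p under 0.05, 8 (14.3%) were higher, against 3.21% of all genes, and 0 lower, against 4.47%. Separated genes with SnoN cKO above numbered 13 (23.2%), against 6.95% of all genes, and 0 had an adjusted p under 0.05 by edgeR. Orc3, a core origin complex subunit, was at 73.0 ± 1.95 CPM in wild type against 82.9 ± 2.79 CPM in SnoN cKO (log2 fold change 0.18, SE 0.05). Clspn, the fork protein that mediates checkpoint signalling, and Rnaseh2c, a subunit of the nuclease that removes ribonucleotides, differed by 0.23 (SE 0.07) and 0.19 (SE 0.06) on the log2 scale. These 3 had the smallest p among the positive genes, with unadjusted p of 0.00269, 0.00748 and 0.00878 by edgeR, and their genotypes did not overlap. The negative genes with the smallest p were the helicase Pif1, the dNTP hydrolase Samhd1 and the fork factor Donson, at -0.08, -0.07 and -0.04 with overlapping libraries.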

How the data were processed

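The deposited values are whole-number read counts for each gene, with the 6 libraries as columns. STAR 2.0.4b, Subread and featureCounts 1.4.5 are named beside the mm9 build, per the submitters' processing notes, and the gene annotation is not given in the sources used here. Libraries were single-end, per the labels' protocols, from a kit that does not record strand. The table's Ensembl identifiers were out of register with its symbols: of 40254 identifiers matched to GENCODE M21, 97 (0.241%) carried the same symbol. The counts followed the symbols (mt-Co1 had 345755 reads by symbol and 0 by identifier), so genes were identified by symbol alone, and transcript lengths and shared exons were taken by symbol from GENCODE M21 on GRCm38. In 140 cases an identical repeat of a symbol was removed.

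Genotypes were compared with edgeR 4.0.16 in R 4.3.3, by the two-sided quasi-likelihood test on all 15457 genes that passed filterByExpr (minimum count 10), with TMM scaling, no covariate and Benjamini-Hochberg adjustment at 0.05. The biological coefficient of variation over all genes was 9.71%. The test was run on simulated data first. The labels give an animal code per library, and p-values measure the spread between these animals. Ratios were compared by exact permutation, which cannot go below 0.1 with 3 against 3.

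The 39 genes, the 57 further replication genes and the marker lists were chosen with earlier results of these data known, and no set test was run. Within each complex, values in every library are given for the genes with the smallest and the largest p, the most abundant per kilobase, and any negative gene. Of the further genes, the 3 with the smallest p in each direction are named. Alternatives covered DESeq2 1.42.0, limma-voom (limma 3.58.1), other scalings and filters, each library left out, a replicate block, labelled sex, male-labelled libraries, brainstem marker level and repeats kept. Leaving out both libraries rich in Gm42418 (wild type 2, SnoN cKO 3) or both with unmatched sex labels (SnoN cKO 1, 2) was added after seeing the data.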

Additional observations from a re-analysis of the deposited data

How the results depend on the processing

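The median log2 fold change of the 39 genes was positive under all 19 alternatives, while no gene of the list with an adjusted p passed its threshold (lowest adjusted p 0.108, for Ccne2 with the brainstem covariate). DESeq2 gave an adjusted p for only 3 of the 39 genes, Mcm2, Mcm6 and Rrm1, so it could not call the other 36. Over all genes edgeR called 0, DESeq2 4, edgeR with no filter on low counts 39, with labelled sex as a covariate 1, with the brainstem covariate 15 and without both libraries of unmatched sex 7. At an unadjusted p under 0.05, 10 of the 39 genes were higher by DESeq2 (against 0.814% of all genes), 19 with no filter (3.37%), 6 in the male-labelled libraries (2.42%) and 3 with the brainstem covariate (1.93%), under which 1 was lower (2.39%). The labelled-sex and male-labelled fits carry the unmatched labels. Same-numbered libraries of the genotypes had correlations of -0.04, -0.32 and -0.18, and differently numbered ones of -0.17 to 0.39. With 3 libraries per genotype these values cannot settle whether the numbers mark pairs. With the replicate block 0 genes were called, the median was 0.13 and 7 of the 39 genes had an unadjusted p under 0.05 and were higher, against 1.90% of all genes. With 1 library left out, separated genes with SnoN cKO higher were fewest without SnoN cKO 2, at 12 (against 10.8% of all genes). They were most without SnoN cKO 3, at 22 (14.2%), with 17 without wild type 3 (14.2%). Such genes numbered 17 in the male-labelled libraries (18.6%) and 25 without both Gm42418-rich libraries (18.8%). The other edgeR scalings and the filter at 1 CPM gave 10 each (6.65% to 6.93%). The block, covariate and limma-voom fits give no such count.

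With the brainstem covariate the medians were 0.047 for all 39 genes, 0.046 for MCM, 0.037 for the GINS group, -0.0044 for polymerases, 0.041 for the clamp group, 0.048 for nucleotide supply, 0.031 for licensing and 0.017 for the further genes. Without both libraries of unmatched sex they were 0.042, 0.044, 0.033, -0.0078 and 0.059 for the first 5 of these, 0.053 for nucleotide supply, 0.016 for licensing, 0.070 for chromatin assembly, 0.30 for cyclin E and 0.043 for the further genes. With 1 library left out the median ran from 0.040 to 0.19 for the GINS group and from 0.059 to 0.20 for the clamp group, 0.079 to 0.21 for MCM, 0.041 to 0.16 for licensing, 0.043 to 0.14 for polymerases, 0.085 to 0.19 for nucleotide supply, 0.085 to 0.16 for chromatin assembly and 0.052 to 0.12 for the further genes, each lowest without SnoN cKO 2, and from 0.12 to 0.24 for cyclin E, lowest without SnoN cKO 3. The causes were not tested.

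Single genes changed sign as follows. With the brainstem covariate Mcm10 was at -0.012, Cdt1 -0.11, Pola2 -0.082, Prim1 -0.0044, Pole -0.18, Pold1 -0.069, Rfc5 -0.058, Fen1 -0.013, Rrm2 -0.037, Chaf1a -0.094 and Ccne1 -0.064. Without both libraries of unmatched sex Gins4 was at 0.033, Mcm10 -0.0024, Cdc6 -0.030, Cdt1 -0.11, Pola2 -0.12, Prim1 -0.0078, Pole -0.17, Pold1 -0.068, Fen1 -0.11, Rrm2 -0.0012, Chaf1a -0.028 and Ccne1 -0.025. In the male-labelled libraries Gins4 was at 0.039. With 1 library left out the ranges were -0.050 to 0.023 for Gins4, -0.043 to 0.079 for Rfc5, -0.095 to 0.14 for Pole, -0.055 to 0.076 for Chaf1a, -0.022 to 0.055 for Ccne1, -0.0060 to 0.13 for Cdc6, -0.025 to 0.15 for Cdt1, -0.022 to 0.14 for Pola2, -0.013 to 0.32 for Fen1 and -0.022 to 0.090 for Tk1. Depth limits Fen1 and Orc1 most, with SE of 0.18 and 0.13.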
